A study of Homo sapiens with 4 samples.

Results

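Ribosome biogenesis was followed in lung cancer cells after silencing of circZFR, a circular RNA made from exons of *ZFR*. The 50 genes were chosen by name from the 40205 genes listed in each library: MYC and its partner MAX, subunits and regulators of RNA polymerases I and III, proteins of the small nucleolar ribonucleoproteins (snoRNPs) and factors that assemble the pre-ribosome. All 50 passed the filter on low values, among 13885 genes that did. Of the 50, 42 had a lower and 8 a higher mean level after circZFR siRNA, with a median difference of -0.28 on the log2 scale, and no gene of the 50 passed the test over all genes. NOLC1 and RRS1 stood at the other end, with mean levels 2.58 and 2.05 times those of the control libraries.

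Ribosomes are built mainly in the nucleolus, where RNA polymerase I copies the ribosomal DNA into a long precursor RNA. Box C/D and box H/ACA snoRNPs guide its methylation and pseudouridylation, while a long series of assembly factors folds and cuts the precursor into the RNAs of the small and the large subunit, and RNA polymerase III supplies 5S rRNA and tRNAs. The transcription factor MYC, bound to DNA as a dimer with MAX, activates many of the genes of this program, and growing tumour cells need a large supply of ribosomes.

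RNA-seq was performed on total RNA of 4 libraries, NC 1 and NC 2 from cells given a negative control siRNA and si-circZFR 1 and si-circZFR 2 from cells given siRNA against circZFR, each transfected for 24 h. The sample labels name the cells H1299, whereas the study's methods and design text name A549. Both are human lung cancer cell lines. No source says whether the libraries of a group came from separate cultures, so p-values measure only the spread between these libraries, which may be technical.

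Depth was 11040050 to 12816868 mapped reads per library, recovered from the deposited RPKM (reads on a gene divided by the gene's length and by the reads of its library). *ZFR*, the host gene, had 1437 and 1740 reads in the NC libraries and 284 and 267 in the si-circZFR libraries, a log2 fold change of -2.33 ± 0.17 (SE, limma FDR = 0.0388). The circle and the linear mRNA cannot be told apart in 1 value per gene. By RT-PCR the study detected no effect of its siRNA on *ZFR*, whereas the mean of the gene here was 0.171 times that of the NC libraries. Whether the linear mRNA was lowered too, and which differences below go with it, was not tested. CDKN2A, which A549 cells lack, was listed at 0 in all 4 libraries. A gene that was not counted would also be listed at 0, so this value does not tell which line was used. AKR1B10, a reductase that A549 cells express strongly, had 24263 to 31003 reads per library. Other markers of A549 cells were a further reductase, AKR1C1, at 8147 to 10963 reads, and the fibrinogen chains FGA, FGB and FGG at 135 to 278, 33 to 108 and 45 to 121 reads. In RPKM the fibrinogen chains were low, at 2.99 to 6.89 (FGA), 0.761 to 2.64 (FGB) and 1.99 to 6.10 (FGG), where AKR1B10 had 1271 to 1747. Which of the 2 lines was used was not tested further. Levels below are scaled RPKM, the deposited RPKM after a common scaling of the 4 libraries, given with SD over n = 2, and a log2 fold change (log2FC) is the si-circZFR mean minus the NC mean of log2(scaled RPKM + 1). Because these are relative levels in bulk RNA, fewer cells expressing a gene and less RNA per cell cannot be told apart.

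A gene was called at a Benjamini-Hochberg FDR under 0.05 over all 13885 genes with an absolute log2FC over 1, in limma. By this rule 0 of the 50 genes were lower and 0 higher, where the background was 0.0288% of genes tested called lower and 0.0288% called higher. At an unadjusted limma p under 0.05, 7 of the 50 were lower, against a background of 11.5%, and 2 were higher, against 10.1%. The 2 si-circZFR libraries lay below both NC libraries for 26 genes, where 28.1% of all genes tested did so, and above both for 3 genes, NOLC1, RRS1 and UBTF, against 28.1%. The groups overlapped for the other 21. The median log2FC was -0.28 over the 50 genes and 0.01 over all genes tested, of which 6852 were lower and 7033 higher. The split of 42 lower and 8 higher became 31 and 19 on RPKM without scaling between libraries, where the median of all genes tested moved to 0.15, and 40 and 10 with upper quartile scaling. Single genes were measured with a median SE of 0.18, and the 95% interval reached a median of 0.45 to either side. For most of the 50 genes this interval included 0. An exact permutation test of 2 against 2 libraries cannot give a p below 0.333. With other processing the calls depended on NOLC1 alone: a filter at 1 CPM called 1.34% of genes tested and limma-voom on the recovered reads 2.19%, and in both NOLC1 was the 1 gene of the 50 called. The count of 7 lower genes also depended on which libraries were used. With 1 library left out, a group holds 1 library, and the share of all genes at that p is not given here. Such counts are therefore not read as results about the 50 genes.

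**Figure D1:**
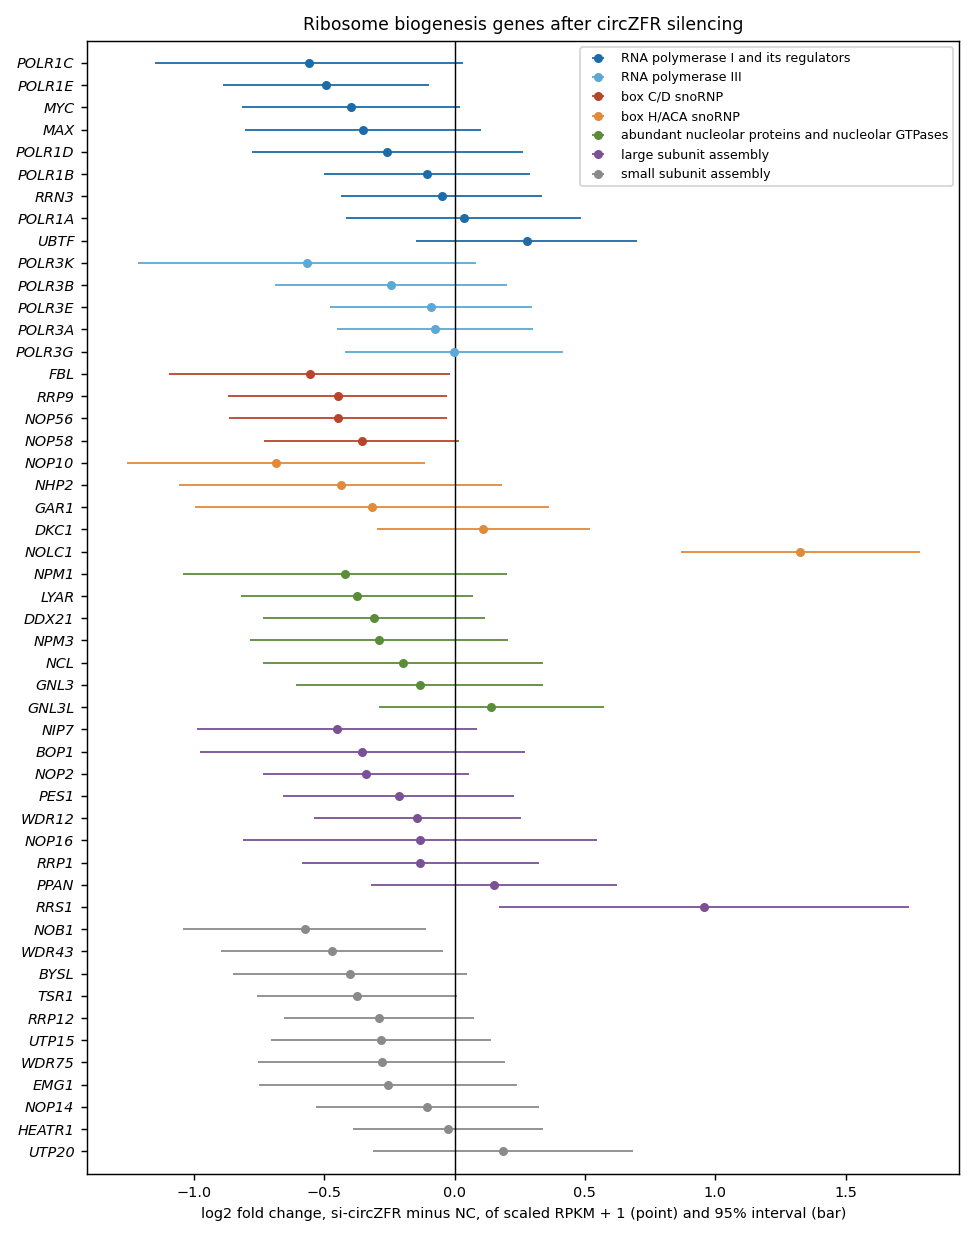
Log2 fold change (si-circZFR minus NC, of scaled RPKM + 1) of the 50 genes, ordered by role, as points with 95% intervals from limma as bars. 42 points lie left of the line at 0, the 4 box C/D proteins among them, and NOLC1 at 1.33 and RRS1 at 0.96 lie far to the right.

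The box C/D snoRNP proteins were the one role in which every gene was lower and every pair of groups was apart. FBL, the methyltransferase that places 2′-O-methyl groups on rRNA, had scaled RPKM of 412 and 442 in the NC libraries and 302 and 279 in the si-circZFR libraries. Its mean went from 427 ± 21.0 to 290.3 ± 16.3, a log2FC of -0.56 ± 0.22 (SE) with an unadjusted limma p of 0.045 and an FDR of 0.221. Both si-circZFR libraries were low and the groups did not overlap. NOP56, a core protein that holds the guide RNA, had levels of 115 and 117 against 82.8 and 87.1, with a log2FC of -0.45 ± 0.17 and a limma FDR of 0.211. Its NC libraries were nearly alike and both stood above the silenced ones. NOP58, the partner of NOP56 in the same particle, had levels of 37.9 and 37.0 against 28.2 and 29.9, a log2FC of -0.36 ± 0.15 with a limma FDR of 0.247. RRP9, which binds the U3 snoRNA needed for the first cuts of the precursor, had levels of 26.7 and 28.6 against 18.1 and 22.1, a log2FC of -0.45 ± 0.17 with a limma FDR of 0.211. For these 4 genes the means of the si-circZFR libraries were 22.4% to 32.0% under those of the NC libraries, and the median log2FC was -0.45, with 3 of the 4 at an unadjusted p under 0.05, where 11.5% of all genes tested were lower at that p, and none past the FDR. With a correction for gene length and GC content the log2FC was -0.33 for FBL (unadjusted limma p of 0.118) and -0.22 for RRP9 (unadjusted limma p of 0.212), while NOP56 stayed under 0.05 at -0.41. RRP9 entered that correction at a recovered length of 791 bases. That was the smallest length that gave whole reads and may be too short, so the corrected value of RRP9 is uncertain.

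The box H/ACA proteins were split. NOP10, the smallest core protein, had scaled RPKM of 71.9 and 107 in the NC libraries and 55.4 and 53.0 in the si-circZFR libraries, the lowest log2FC of the 50 genes at -0.69 ± 0.23 (limma FDR = 0.179). The groups were apart, although the NC libraries differed from each other by 0.57 on the log2 scale, nearly as much as the groups did. The log2FC was -0.40 without NC 2 and -0.32 with the correction for length and GC content, under which WDR43 (-0.52), TSR1 (-0.47) and NOB1 (-0.47) were lower than NOP10. NHP2, which binds the same guide RNA, followed with 65.3 and 103 against 62.8 and 58.0, where NC 2 stood above the other 3 libraries (log2FC -0.44 ± 0.25, limma FDR = 0.355, and -0.11 without NC 2). GAR1 overlapped between groups at a log2FC of -0.32, as did DKC1, the pseudouridine synthase itself, at 0.11.

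NOLC1, also known as Nopp140, a chaperone that escorts snoRNPs between Cajal bodies and the nucleolus, moved in the opposite direction. The gene lies on chromosome 10 from 102152176 to 102163871 (GRCh38). It had 825 and 613 reads in the NC libraries and 1837 and 1931 in the si-circZFR libraries, and scaled RPKM of 17.8 and 13.4 against 40.6 and 40.0. Both silenced libraries were far above both controls, and they differed from each other by 0.02 on the log2 scale. The mean went from 15.6 ± 3.12 to 40.3 ± 0.455, a log2FC of 1.33 ± 0.19 with a 95% interval from 0.87 to 1.78, an unadjusted p of 0.00044 and a limma FDR of 0.0759. It was 84th of 13885 genes from the highest log2FC. The FDR was 0.0446 with the CPM filter, 0.0245 with limma-voom and 0.0456 without NC 1, and between 0.0519 and 0.626 under the 13 other alternatives, while the log2FC stayed between 1.13 and 1.52 under all of them. The annotation names 1 pseudogene of NOLC1, and how reads that fit both were counted is not stated in the sources used here.

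**Figure D2:**
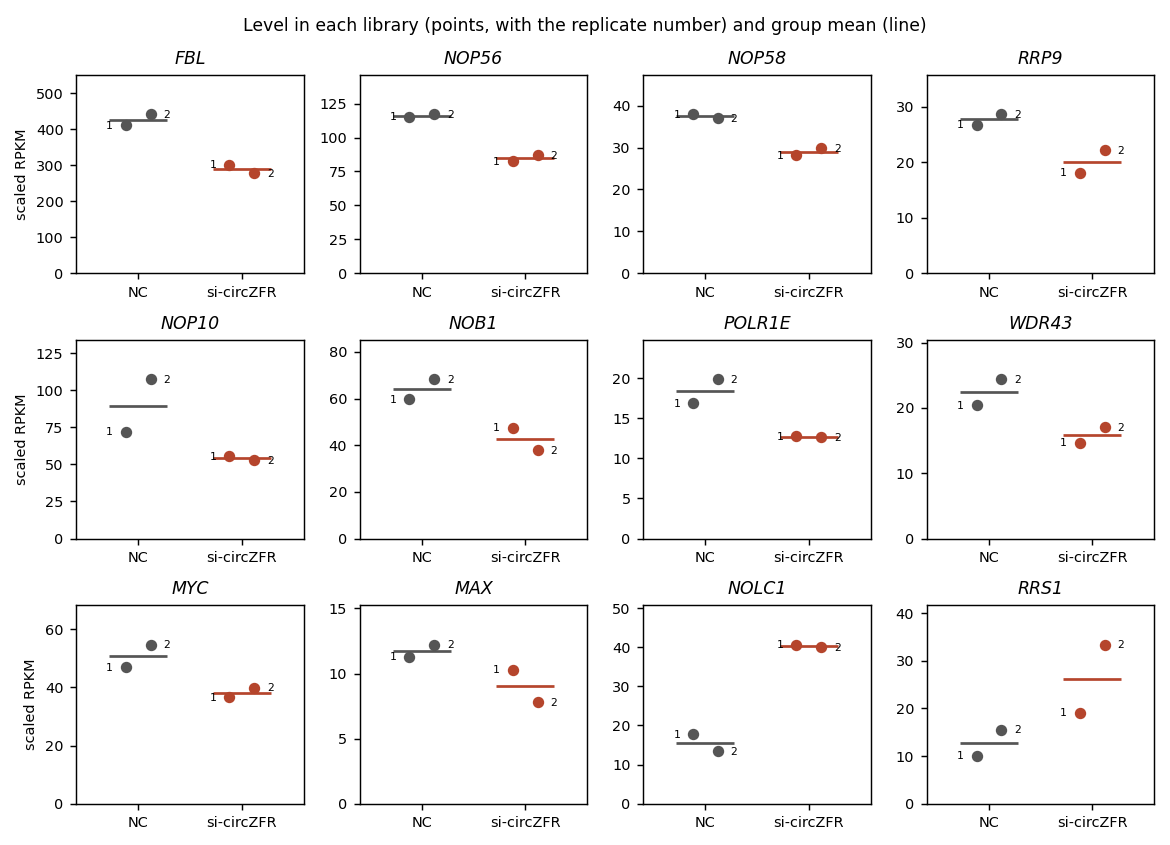
Scaled RPKM of 12 genes in each library (points, marked with the replicate number) with group means (lines), each panel with its own axis from 0. In 10 panels both si-circZFR libraries lie below both NC libraries, for FBL at 279 and 302 against 412 and 442, and in the panels of NOLC1 and RRS1 they lie above.

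RRS1, which brings the 5S ribonucleoprotein into the growing large subunit, had the second highest log2FC of the 50 genes. It lies on chromosome 8 from 66429014 to 66430733 and had 202 and 307 reads against 373 and 697, or 10.1 and 15.5 scaled RPKM against 19.1 and 33.4. The libraries of a group differed by 0.58 (NC) and 0.78 (si-circZFR) on the log2 scale, so that si-circZFR 1 was only 0.28 above NC 2. The log2FC was 0.96 ± 0.32 with a limma FDR of 0.176, 0.67 without NC 1 and 0.57 without si-circZFR 2, the highest library. Its exons share 194 bases with another gene model on the same strand, and those of NOP2 share 2550 with a further one, so how reads were divided there is uncertain. The other large subunit factors showed smaller differences. NOP2, an rRNA methyltransferase, had 53.3 and 51.8 against 43.7 and 39.1 scaled RPKM (log2FC -0.34 ± 0.16, limma FDR = 0.282), and NIP7, which joins late precursors, had 11.9 and 17.2 against 9.29 and 11.1 (log2FC -0.45 ± 0.22, limma FDR = 0.288, and -0.20 without NC 2). Both were lower in both silenced libraries. Of the 3 proteins of the PeBoW complex, which is needed to mature the large subunit RNAs, WDR12 was lower with groups apart at a log2FC of -0.14, while BOP1 at -0.35 and PES1 at -0.21 overlapped. BOP1 had 539 reads in si-circZFR 1 and 928 in si-circZFR 2, the latter between the NC values of 977 and 825 reads. NOP16 (-0.13), RRP1 (-0.13) and PPAN (0.15) overlapped as well, and PPAN shares 1374 exonic bases with its readthrough transcript PPAN-P2RY11. Over the 9 large subunit genes, 7 were lower and 2 higher, with a median log2FC of -0.14, but without scaling 4 were lower and 5 higher, with a median of 0.02.

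Among the 11 small subunit factors, 10 were lower (8 without scaling and 9 with upper quartile scaling), and the median log2FC was -0.28. Groups were apart for 7 of the 10, where 28.1% of all genes tested were lower with groups apart. NOB1, the nuclease that makes the last cut at the 3′ end of 18S rRNA, had scaled RPKM of 59.7 and 68.1 against 47.5 and 38.0, a log2FC of -0.58 ± 0.19 (limma FDR = 0.172). WDR43, part of the UTP-A complex that binds the nascent precursor, had levels of 20.4 and 24.3 against 14.7 and 17.0 (log2FC -0.47 ± 0.17, limma FDR = 0.202). TSR1, a GTPase-like factor that keeps immature small subunits from translating, had levels of 27.7 and 27.0 against 19.6 and 22.2 (log2FC -0.37 ± 0.16, limma FDR = 0.239). The NC libraries were above the si-circZFR libraries in all 3 genes. BYSL (-0.40), RRP12 (-0.29), UTP15 (-0.28) and WDR75 (-0.28) were also lower with groups apart. EMG1, an rRNA methyltransferase (-0.25), NOP14 (-0.10), HEATR1 (-0.03) and UTP20 (0.18) overlapped. HEATR1 was the steadiest of them, with 22.1 and 21.3 scaled RPKM in the NC libraries and 21.1 and 21.4 in the silenced ones. On the opposite strand, exons of TSR1 overlap those of SRR (1146 bases), EMG1 overlaps LPCAT3, HEATR1 overlaps LGALS8 and, among the large subunit genes, NIP7 overlaps COG8 (873 bases), and whether the counting used strand is not stated, so reads of these partners may not have been told apart.

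Of the 9 genes of RNA polymerase I and its regulators, MYC and MAX included, 7 were lower and 2 higher (5 and 4 without scaling). At an unadjusted limma p under 0.05, 1 was lower, where 11.5% of all genes tested were, and none passed the FDR. POLR1E, a subunit peculiar to this polymerase, had scaled RPKM of 16.9 and 19.8 in the NC libraries and 12.8 and 12.7 in the si-circZFR libraries, a log2FC of -0.49 ± 0.16 with an unadjusted limma p of 0.0225, the smallest among the lower genes, and an FDR of 0.171. POLR1C, which polymerase III shares, had 15.5 and 18.7 against 8.95 and 14.1 (log2FC -0.56 ± 0.24, limma FDR = 0.249). The groups were apart for both genes, with si-circZFR 1 lowest for POLR1C. Its log2FC was -0.26 without si-circZFR 1 and -0.86 without si-circZFR 2, and the groups overlapped at -0.33 with the correction for length and GC content. The catalytic subunits POLR1A and POLR1B had log2FC of 0.04 and -0.10 and overlapped, as did POLR1D (-0.26), the other subunit shared with polymerase III. RRN3, which brings the polymerase to the promoter, had a log2FC of -0.05 with a 95% interval from -0.44 to 0.34. UBTF, which binds the ribosomal DNA promoter and keeps it open, had 17.5 and 16.5 against 18.6 and 23.1 scaled RPKM, higher in both silenced libraries but with a limma FDR of 0.39 (log2FC 0.28 ± 0.17).

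The 5 genes of RNA polymerase III were all lower in mean, although without scaling POLR3A, POLR3E and POLR3G were higher, as was POLR3G with upper quartile scaling. Groups were apart for 2 of them, where 28.1% of all genes tested were lower with groups apart. None had an unadjusted limma p under 0.05. POLR3K, a small subunit involved in termination, had 14.2 and 22.7 against 10.3 and 13.6 scaled RPKM (log2FC -0.57 ± 0.26, limma FDR = 0.276). POLR3B, the second largest subunit, had 2.43 and 2.89 against 1.98 and 2.20 (log2FC -0.24 ± 0.18, limma FDR = 0.464), at 97 to 143 reads per library. These 2 genes were lower in both silenced libraries. Without NC 2 the log2FC of POLR3K was -0.24 and that of POLR3B -0.15, and with the correction for length and GC content POLR3K was at -0.23 with overlapping groups. POLR3E had 12.4 and 10.9 against 11.2 and 10.5 (log2FC -0.09 ± 0.16, limma FDR = 0.767), with overlapping groups, and without scaling of the libraries its difference changed sign to 0.0699. The largest subunit POLR3A (-0.08) overlapped too, and POLR3G, the form of its subunit that is high in stem and tumour cells, was at a log2FC of -0.0033 with a 95% interval from -0.42 to 0.41.

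The abundant nucleolar proteins were lower in 6 of 7 cases, and in 5 without scaling. NPM1, the chaperone nucleophosmin, had 181 and 267 scaled RPKM against 156 and 172 (log2FC -0.42 ± 0.25, limma FDR = 0.372). NC 2 stood above the other 3 libraries, and si-circZFR 2 was close to NC 1. Without NC 2 the log2FC was -0.14. The annotation names 49 pseudogenes of NPM1, so its value is uncertain wherever reads could be split among copies. LYAR, a nucleolar zinc finger protein of growing cells, had 8.02 and 7.06 against 4.94 and 6.29 (log2FC -0.37 ± 0.18, limma FDR = 0.289, and -0.23 without si-circZFR 1). DDX21, a helicase that acts in both transcription and processing of rRNA, had 42.8 and 51.2 against 36.1 and 39.2 (log2FC -0.31 ± 0.17, limma FDR = 0.344, and -0.18 without NC 2). Groups were apart for both, as they were for NPM3 at -0.29. Nucleolin (NCL), at a log2FC of -0.20, had 206 and 187 against 151 and 194, so that si-circZFR 2 lay between the NC libraries. The GTPases GNL3 (nucleostemin) at -0.13 and GNL3L at 0.14 overlapped.

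MYC had 1300 and 1497 reads in the NC libraries and 990 and 1154 in the si-circZFR libraries, or 46.8 and 54.6 scaled RPKM against 36.5 and 39.8. Both silenced libraries were below both controls, and the mean was 24.8% lower (log2FC -0.40 ± 0.17, with an unadjusted limma p of 0.0582 and an FDR of 0.246). MAX had 11.3 and 12.2 against 10.3 and 7.82 scaled RPKM (log2FC -0.35 ± 0.18, limma FDR = 0.316), lower in both silenced libraries and lowest in si-circZFR 2, without which the log2FC was -0.17. Of 11 other genes of the MYC network 9 were tested: 2 were lower and 7 higher, with a median log2FC of 0.32, and none was called in limma, with the CPM filter or in limma-voom. MLX, a MAX-like protein, had a log2FC of -0.60 ± 0.16, MXI1, which competes with MYC for MAX, had -0.66 ± 0.21, and MXD3, of the same family, had 0.62 ± 0.19. Among 21 tested genes from a list of MYC targets outside ribosome biogenesis, 15 were lower, with a median log2FC of -0.18. At an unadjusted limma p under 0.05, 5 (23.8%) were lower and 0 higher, against 11.5% and 10.1% of all genes tested. The 3 with the smallest p were the nucleotide kinase NME1 (-0.81 ± 0.18), the repair nuclease APEX1 (-0.66 ± 0.23) and the spermidine synthase SRM (-0.53 ± 0.20), none past the FDR.

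The E-box CACGTG, the DNA letters that dimers of MYC and MAX prefer, was searched in the promoters as a description. The word reads the same on both strands. RefSeq windows from 250 bases before to 50 after the start were held for 42 of the 50 genes (GRCh38.p14), and 15 of the 42 (35.7%) had the word in at least 1 window, against 8.79% of 27195 genes in the table, 12.9% of the 8753 tested genes matched to it and 28.8% of 118 other ribosome biogenesis genes. Windows of BOP1, POLR1E, POLR3G, MYC, RRP12, NOP58, NOLC1 and RRS1 were not used here. Of the 16 words found, 14 began within 60 bases of the start. Each line below gives 30 bases around the word, read 5′ to 3′ on the gene's strand with the E-box in capitals. The stretches printed were chosen by log2FC: those of the 5 genes of the 15 with the lowest values, and that of UTP20, the 1 that was higher. They lie at chr19:39846356-39846385 on the minus strand (FBL), chr3:51941892-51941921 minus (RRP9), chr15:34343130-34343159 minus (NOP10), chr2:28894658-28894687 plus (WDR43), chr6:41921515-41921544 plus (BYSL) and chr12:101280083-101280112 plus (UTP20).
FBL: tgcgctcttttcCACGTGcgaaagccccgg
RRP9: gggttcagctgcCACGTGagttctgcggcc
NOP10: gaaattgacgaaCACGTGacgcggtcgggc
WDR43: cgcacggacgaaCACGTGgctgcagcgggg
BYSL: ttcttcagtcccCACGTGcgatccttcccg
UTP20: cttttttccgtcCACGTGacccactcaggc

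Counting the start as base 1 and the base before it as -1, the word began at base 7 in FBL, 4 in WDR43, 29 in BYSL, -5 in RRP9, -11 in NOP10 and -10 in UTP20. NOP10 held a further one at -170. The remaining genes with the word, all with log2FC nearer to 0 than the lower genes printed, were DDX21 (-0.31), GAR1 (-0.32), GNL3 (-0.13), LYAR (-0.37), NOP14 (-0.10), NOP2 (-0.34), PES1 (-0.21), POLR3A (-0.08) and POLR3E (-0.09). The 15 genes with an E-box had a median log2FC of -0.32, from -0.69 to 0.18, and 14 were lower. The 27 without one had a median of -0.25, from -0.58 to 0.28, and 22 were lower. The 2 ranges overlapped almost throughout, and the difference was not tested. A match gives letters in a window and does not show that MYC bound there.

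The shift of the 50 genes was also followed between single libraries. Set against NC 1, the median difference was -0.21 in si-circZFR 1 (43 of 50 lower) and -0.11 in si-circZFR 2 (34 lower). Set against NC 2, it was -0.39 (41 lower) and -0.28 (37 lower). The libraries of 1 group differed as well: NC 2 was above NC 1 by a median of 0.16 (32 genes higher), and si-circZFR 2 above si-circZFR 1 by 0.11 (31 higher), whereas the medians over all genes tested stayed within 0.01 of 0 in all 6 pairs. All 4 differences between groups thus had 1 sign for the median, but the smallest of them was no larger than the gap between the NC libraries. Gene by gene, the absolute log2FC was above both gaps within groups in 19 of 50 genes. Without NC 2, the NC library with the higher levels, the median log2FC was -0.15, and it was -0.24 to -0.33 when another library was left out. The 50 genes took 0.427% and 0.419% of mapped reads in the NC libraries and 0.375% and 0.443% in the si-circZFR libraries, so that by this sum, before any scaling, si-circZFR 2 was the highest library. Without NOLC1 and RRS1 the shares were 0.419% and 0.412% in the NC libraries and 0.356% and 0.419% in the si-circZFR libraries. By that sum si-circZFR 2 and NC 1 were nearly equal.

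**Figure D3:**
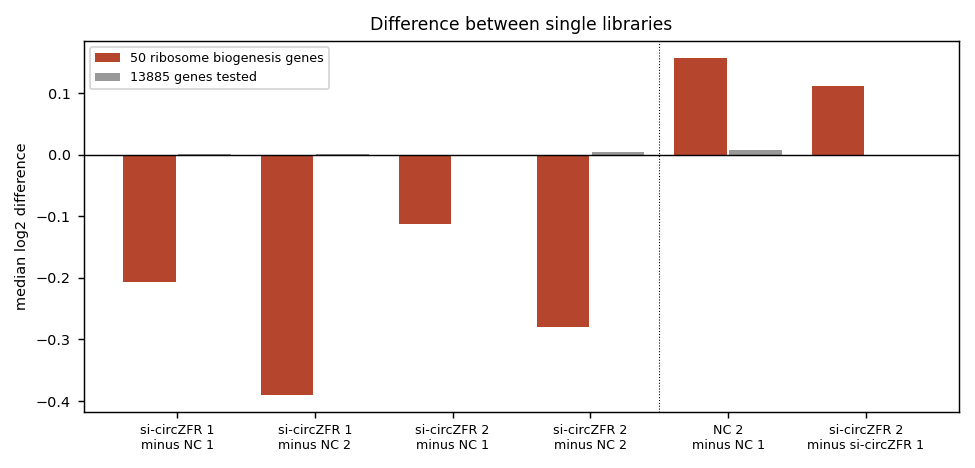
Median log2 difference of the 50 genes (red bars) and of all 13885 genes tested (grey bars) for each pair of libraries, with pairs between groups left of the dotted line and pairs within a group right of it. The red bars run from -0.11 to -0.39 between groups and stand at 0.16 and 0.11 within them, while the grey bars stay within 0.01 of 0.

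Gene length moved with these differences. Lengths of the 50 genes ran from 535 to 9010 bases, with a median of 2343. Each was the smallest length that gave whole reads, so a true length can be a multiple of it. The correction for length below has the same limit, as for RRP9, entered at 791 bases. Spearman's rho of log2FC on length was 0.547 over the 50 genes and 0.294 over all genes tested, and the shorter 25 genes had a median log2FC of -0.37 against -0.10 for the longer 25. Between NC 2 and NC 1 rho was -0.604 over the same 50 genes, and between the si-circZFR libraries it was -0.124. These values are descriptions across genes, which share libraries and are not independent. By these lengths NOP10 was the shortest gene and had the lowest log2FC, and UTP20, the longest, had one of 0.18. With each library corrected for both length and GC content, the median over the 50 genes was -0.22, against -0.02 over all genes tested. Of 22 genes given library by library, 8 moved by over 1.5 times under this correction: NOP10 went from -0.69 to -0.32, NHP2 from -0.44 to -0.15, POLR3K from -0.57 to -0.23, POLR1C from -0.56 to -0.33, FBL from -0.56 to -0.33, NPM1 from -0.42 to -0.20, RRP9 from -0.45 to -0.22 and POLR3E, the longest of them, from -0.09 to -0.17.

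**Figure D4:**
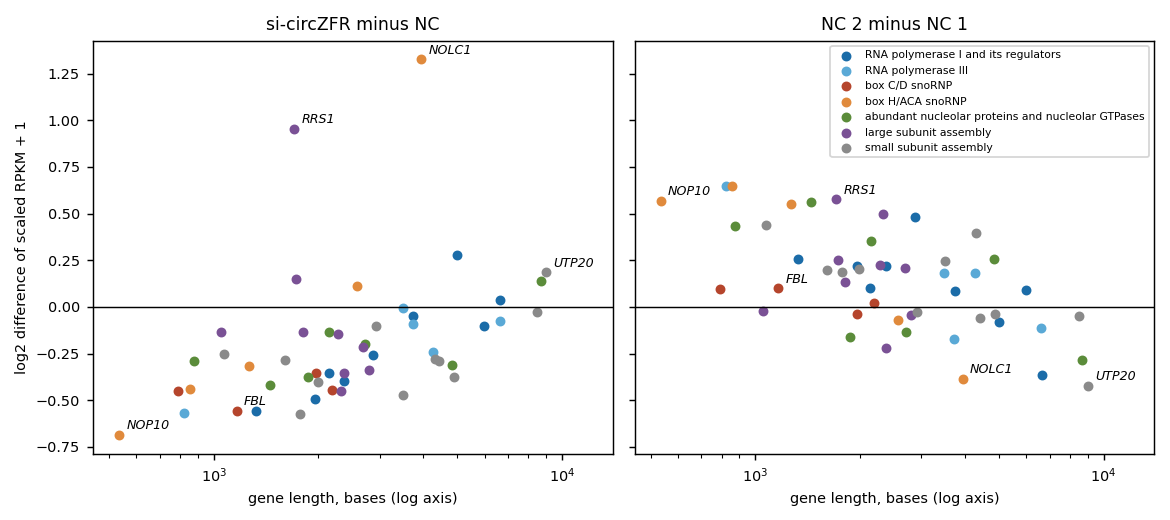
Log2 difference of scaled RPKM + 1 against gene length (log axis) for the 50 genes, coloured by role, between groups on the left and between the NC libraries on the right. Points rise with length on the left (rho 0.547) and fall with it on the right (rho -0.604), and NOLC1 and RRS1 lie above the rest on the left.

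Other genes of ribosome biogenesis were counted from 6 further lists, 155 genes in all, every one tested. Of these, 90 were lower and 65 higher with a median log2FC of -0.07, 24 (15.5%) were lower and 8 (5.16%) higher at an unadjusted limma p under 0.05, against 11.5% and 10.1% of all genes tested, and 0 were called by limma with Benjamini-Hochberg adjustment. With the CPM filter 1 of them was called (SENP3), and with limma-voom 2 (SENP3 and POLR2H). Of 48 other large subunit factors, 12 were lower and 2 higher at that p. SENP3, a SUMO protease that acts on them, had 25.9 and 28.4 scaled RPKM against 11.0 and 12.8 (log2FC -1.13 ± 0.16, limma FDR = 0.0759), and its partner TEX10 had a log2FC of -0.82 ± 0.16 and the nucleolar methyltransferase RRP8 one of -0.74 ± 0.16. Of 40 other small subunit factors 3 were lower and 2 higher at that p, led by the helicase DHX37 at 0.93 ± 0.15, UTP14A at -0.53 ± 0.15 and TSR2 at 0.71 ± 0.22.

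Of 18 other genes of RNA polymerase I, 4 (22.2%) were lower and 1 (5.56%) higher at an unadjusted p under 0.05. Over all genes tested, 11.5% were lower and 10.1% higher at that p. POLR2H, a subunit shared by the 3 nuclear polymerases, had 19.8 and 22.0 scaled RPKM against 10.5 and 9.40, a mean 0.476 times that of the controls (limma FDR = 0.0782), and POLR2F, also shared, had a log2FC of -0.51 ± 0.15. TCOF1, the nucleolar protein treacle, which is related to NOLC1 in its repeats, was at 0.68 ± 0.18. The 22 other genes of RNA polymerase III leaned the other way, with 16 higher and a median of 0.08. POLR3GL, the widely expressed paralog of POLR3G, had 3.35 and 4.40 scaled RPKM against 8.67 and 7.78 (log2FC 0.93 ± 0.18, limma FDR = 0.091), and GTF3A, which starts 5S rRNA transcription, was at 0.55 ± 0.18 and SNAPC3 at 0.41 ± 0.16. Of 12 other snoRNP genes 3 (25.0%) were lower at an unadjusted p under 0.05, against the 11.5% of all genes tested. They were NHP2L1 (-0.68 ± 0.21), a core box C/D protein, and RUVBL1 (-0.48 ± 0.19) and ZNHIT3 (-0.52 ± 0.20), both of the assembly machinery. The exosome, which trims rRNA ends, had 10 of 15 genes lower with a median of -0.24, and EXOSC9 (-0.44 ± 0.15), EXOSC1 (-0.73 ± 0.28) and EXOSC10 (-0.28 ± 0.17) had its smallest p.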

How the data were processed

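Total RNA of the 4 libraries was prepared with the Ion Total RNA-Seq kit and sequenced on the Ion Proton. The authors deposited RPKM per gene, with hg38 named in the study's methods and GRCh37 in the submitters' processing notes. Aligner, counter and annotation are not given in the sources used here. The authors removed batch effects with SVA and tested with edgeR. SVA was not rerun, and the deposited RPKM were tested on a log scale.

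Libraries were scaled by an unweighted trimmed mean of log ratios, leaving out 30% of ratios and 5% of levels (factors 0.904 to 1.11). Genes that reached an RPKM of 1 in 2 or more libraries were tested with limma 3.58.1 (R 4.3.3) on log2(scaled RPKM + 1) with a trended prior, without covariates and over the whole table. A pseudocount of 1 understates changes of low genes. Whole reads were found by searching for the smallest gene length that made all values of the gene whole. They came out for 24282 of 24289 genes above 0 (99.97%, tolerance 0.001 read) and for 96.2% to 97.3% of small RNAs of known length. Where the true reads of a gene share a factor, this search can return a fraction of them and of the length. The reads served for depth, CPM and limma-voom, which called 304 genes. The main fit used only the RPKM. At this depth 3 reads were 0.234 to 0.272 CPM, which covers counting error only. Values in every library are given for genes with unadjusted p under 0.05, MYC and MAX, the 3 with the smallest p in each role and those called in an alternative, and a further few named for contrast were chosen after their values were seen. Of each other list the 3 genes with the smallest p are named. The members and lists were chosen with earlier results of these data known. The result for 1 marker of the cell lines is not reported here. Promoter windows came from RefSeq and gene positions from GENCODE v44.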

Additional observations from a re-analysis of the deposited data

How the results depend on the processing

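With 2 libraries per group the intervals are wide. None of the 22 named genes passed, so keeping their side of the threshold says little of stability: of their 352 log2FC values under 16 alternatives, 51 moved by over 1.5 times, in 19 genes, 14 of them without scaling, 8 with the length and GC correction and 8 without NC 2. Those that newly passed were 3 values of NOLC1, at 1.33 (filter at 1 CPM), 1.38 (limma-voom) and 1.52 (without NC 1), and POLR3E changed sign without scaling (0.0699). The number of the 50 genes called was 1 with the CPM filter and with limma-voom, and 0 to 1 when 1 library was left out. Those lower at an unadjusted p under 0.05 numbered 12 with no filter, 1 without scaling, 11 without pseudogenes, ribosomal protein and mitochondrial genes, and 11 with the length and GC correction and the replicate block together. Those higher numbered 1 with no filter. The share of all genes tested at that p is not given here for these settings or for the replicate block below. The counts therefore do not show whether the 50 genes stood out more or less than in the main fit. Without scaling, the median of all genes moved to 0.15 and that of the 50 genes to -0.12. The groups were then apart in 13 lower and 6 higher genes. With 1 library left out, they were apart in 30 to 37 lower and 3 to 9 higher genes. The share of all genes apart under these settings is not given here, and a group of 1 library overlaps the other less readily. These counts therefore do not show whether the 50 genes stood out more or less than with all libraries and scaling. The genes called over the whole table numbered 8, and 198 (CPM filter), 304 (limma-voom), 0 (no filter), 1 (no trend), 2 (pseudocount 0.1), 15 (length and GC), 48 (the same with the replicate block), 47 (without pseudogenes, ribosomal protein and mitochondrial genes) and 0 to 717 (1 library left out). The cause of these changes was not tested. With the replicate number as a block 63 genes were called. None was among the 50, where 8 were lower and 2 higher at an unadjusted p under 0.05, FBL (unadjusted limma p of 0.0978) and NOP56 (unadjusted limma p of 0.0649) no longer among them. Same-numbered libraries deviated together with a correlation of 0.069, so the numbers were not taken to pair them.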

Other observations

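The RNAs that these proteins work on were read only in small part. The 45S, 18S, 28S and 5.8S rRNA genes were listed at 0 in all 4 libraries, and their levels were not analysed here. RMRP, the RNA of the RNase MRP that cuts the rRNA precursor, had 86 and 81 reads in the NC libraries and 21 and 7 in the si-circZFR libraries (log2FC -2.48 ± 0.42, limma FDR = 0.082). The groups were apart, and the silenced libraries differed from each other by 1.32 on the log2 scale. RN7SK, another product of RNA polymerase III, had 9 and 10 recovered reads against 2 and 2 (log2FC -1.55 ± 0.17, limma FDR = 0.0657). These go with a recovered length of 166 bases, the smallest that gave whole reads, so the true reads may be a multiple of them. At so few reads counting error alone is large. RN7SL2, a copy of the signal recognition particle RNA, had 26 and 27 against 14 and 14. Its near-identical copy RN7SL1 had 53 and 106 against 57 and 97 and overlapped, so the pair is uncertain where reads could be split between them. RPPH1, also made by RNA polymerase III, had 6 and 4 against 0 and 6 reads and overlapped. SNORD3A, the U3 snoRNA, had 686 and 1718 against 461 and 1377 reads, and the libraries of a group differed more than the groups did. SNORD118, SNORD14A and SNORA73A, at 1 to 12 reads per library, overlapped as well.

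Of 27 snoRNAs annotated inside the 50 genes, 22 were listed, in 8 host genes, and 2 of them had 100 or more reads over the 4 libraries. Of 14 tested, 3 were higher and 1 lower with groups apart, and 3 had an unadjusted limma p under 0.05. Over all genes tested, 28.1% were higher and 28.1% lower with groups apart, and 10.1% were higher and 11.5% lower at that p. No difference of the snoRNAs from these shares was tested. The 5 listed in introns of NOP56 had 68 and 50 reads together in the NC libraries and 87 and 117 in the si-circZFR libraries, while the NOP56 mRNA was lower. SNORD110 had 19 and 12 against 35 and 46 reads (log2FC 1.34 ± 0.25, limma FDR = 0.082) and SNORD57 had 5 and 4 against 10 and 12 (log2FC 1.13 ± 0.17, limma FDR = 0.0782). Both were higher in both silenced libraries. SNORD91B, in TSR1, went the other way, with 3 and 2 reads against 0 and 0 (limma FDR = 0.0691). These 3 were chosen after their values were seen, and at so few reads counting error alone is large.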
